A study of Mus musculus with 6 samples.

Results

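Collagen genes were followed in adherent bone marrow cultures of young and old mice. Every gene whose symbol had the form of a collagen chain (Col, a type number, a and a chain number) was taken from the table of counts, which gave 44 chains among 39017 gene identifiers. The cultures came from wild-type BALB/c mice, and no treatment is named in the labels. Young mice were 3 weeks old and old mice were more than 78 weeks old, with 3 libraries for each age. Marrow cells were set free by crushing leg and arm bones, non-adherent cells were removed, and the remaining cells were grown in serum-rich medium and described as macrophages positive for F4/80 and CD169. RNA of 10000 cells entered each library. The labels do not say how many mice gave each library or whether the libraries came from separate mice, so the p-values measure only the spread between these libraries.

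Collagens are triple-helical proteins made of 3 chains, and the chains that can combine define the collagen type. Fibrillar collagens form the tensile fibres of bone, tendon and skin, network-forming collagens build basement membranes and the sheets or filaments around cells, and fibril-associated collagens with interrupted helices (FACIT) sit on fibre surfaces. In bone and marrow, most collagen is type I and is made by osteoblasts and other stromal cells, while macrophages are better known for taking collagen up and degrading it. Because the libraries hold RNA from all cells in the culture, fewer cells of a type and less RNA per cell cannot be told apart.

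The labelled cell type was checked against 12 macrophage markers. All of them were read in both ages, with a summed level of 8753 to 10448 CPM (read counts scaled to library size) in the young libraries and 4926 to 5314 in the old, and 11 of the 12 fell, led by Siglec1, Csf1r, C1qb and C1qc. Col1a1, a collagen chain and not a macrophage marker, ranked 1 among all genes in each of the 6 libraries. Total counts lay between 34391206 and 43367734 per library. Of 15567 genes tested with edgeR's quasi-likelihood test at a Benjamini-Hochberg adjusted p under 0.05, 10.5% were called, 5.84% higher and 4.7% lower in the old libraries.

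Sequence upstream of 4 chains, chosen after their values were seen, is shown here as examples. Col5a3 and Col11a1 are minor fibrillar chains that fell, Col13a1 had no count in any old library, and Col3a1 is a major fibrillar chain for which no difference was called. Each line gives the 150 bases that end just before the RefSeq start on build GRCm38.p6, written 5′ to 3′ on the gene's strand, at chr9:20815068-20815217 (minus strand) for Col5a3, chr3:114030390-114030539 (plus strand) for Col11a1, chr10:61979109-61979258 (minus strand) for Col13a1 and chr1:45311388-45311537 (plus strand) for Col3a1. Capitals mark matches on either strand to the motif of CCAAT boxes (letters CCAAT), to that of core promoters (letters TATAAA) and to that bound by Sp1 (letters GGGCGG), and no matches overlapped in these windows.
Col5a3: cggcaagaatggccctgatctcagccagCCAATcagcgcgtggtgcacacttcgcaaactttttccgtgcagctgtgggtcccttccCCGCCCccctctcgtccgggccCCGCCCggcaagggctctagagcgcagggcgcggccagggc
Col11a1: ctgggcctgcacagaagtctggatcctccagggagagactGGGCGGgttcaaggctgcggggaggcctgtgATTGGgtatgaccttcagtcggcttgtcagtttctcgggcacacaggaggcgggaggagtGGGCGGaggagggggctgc
Col13a1: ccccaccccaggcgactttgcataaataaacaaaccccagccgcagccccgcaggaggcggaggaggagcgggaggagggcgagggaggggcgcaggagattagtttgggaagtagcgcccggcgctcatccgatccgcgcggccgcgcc
Col3a1: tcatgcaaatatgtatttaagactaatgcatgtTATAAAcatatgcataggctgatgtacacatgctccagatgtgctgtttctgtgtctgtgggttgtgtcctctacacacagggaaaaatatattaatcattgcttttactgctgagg
The windows of Col5a3 and Col11a1 each held 1 CCAAT match and 2 GGGCGG matches, that of Col3a1 held 1 TATAAA match, and that of Col13a1 held none of these letters. Other chains called lower differed from Col5a3 and Col11a1. Their 150 bases held no match for Col15a1 and Col6a3, GGGCGG alone for Col8a1 and Col8a2, and TATAAA with GGGCGG for Col11a2. RefSeq windows were found for 35 of the 44 chains, 38 windows in all. Over the 250 bases before the start, 13 of these 38 windows held CCAAT (34.2%, against 33.85% of all 32851 windows), 5 held TATAAA (13.2% against 12.4%) and 22 held GGGCGG (57.9% against 32.7%). A match describes the letters only.

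Collagen RNA made up a smaller part of the old libraries. The summed counts of the 44 chains were 3.98%, 3.58% and 7.47% of all counts in the young libraries, and 2.63%, 2.70% and 3.36% in the old libraries. Here and below, the values of each age are given in the order of replicates 1, 2 and 3. Every old library lay below every young library, and young replicate 3 stood well above the other young libraries. The mean was 5.01% ± 2.14 (SD, n = 3) in the young and 2.90% ± 0.403 (SD, n = 3) in the old libraries. With 3 libraries against 3, an exact two-sided permutation test cannot give a p below 0.1. Without the type I chains Col1a1 and Col1a2 the share was 1.31% ± 0.626 in the young and 0.924% ± 0.161 in the old libraries (SD, n = 3), and the difference, old minus young, of -0.387 percentage points was smaller than the spread between the young libraries. Over all chains the difference was -2.11 percentage points with all 6 libraries and -0.883 without young replicate 3.

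Of the 44 chains, 33 passed the filter on low counts and were tested. The test called 9 of the 33 lower in the old libraries and none higher, beside 4.7% and 5.84% of all tested genes, and 24 were not called. At an unadjusted p under 0.05, 19 chains were lower and 1, Col23a1, was higher, beside 11.1% and 12.7% of all tested genes. DESeq2 called 16 lower and 0 higher, beside 7.31% and 8.56% of all genes with an adjusted p. limma-voom called 8 lower and 0 higher, beside 4.55% and 6.06%. The median log2 fold change of the tested chains, old minus young, was -1.002. Setting the chains without any old count to their bounds could not change it, because those bounds also lie below the median. The median of all tested genes was -0.01. Of the tested chains 26 were negative and 7 positive. Of all 15567 tested genes, 8013 were negative and 7554 positive. In 19 of the 33 chains every old library lay below every young library, which held for 14.3% of all tested genes, and in 1 chain, Col23a1, every old library lay above, which held for 15.9%.

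**Figure D1:**
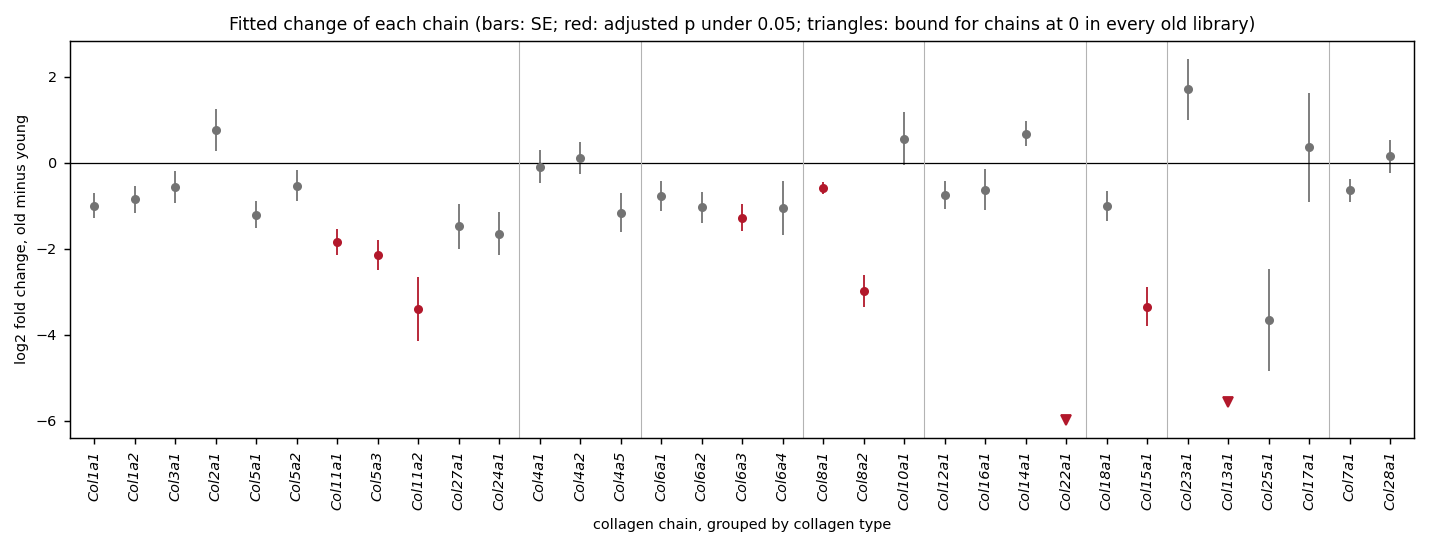
Fitted log2 fold change, old minus young, of the 33 tested collagen chains, grouped by collagen type along the horizontal axis, with bars for the standard error. Red points are the 9 chains with an adjusted p under 0.05, all below 0, and the 2 triangles place Col22a1 and Col13a1, which had no count in any old library, at the bound set by 3 counts over the old libraries.

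Young replicate 3 stood apart in its collagen levels. Its CPM divided by the mean of young replicates 1 and 2 had a median of 2.183 over the tested chains, and 27 of 33 chains exceeded 1.5. Over 15522 tested genes with a value, the median ratio was 1.00 and 10.5% exceeded 1.5. Of the 19 chains whose mean reached 10 CPM in one age, 18 exceeded 1.5, and the ratio ran from 1.37 to 3.49. With that library left out, 34 chains were tested and 11 were called lower, beside 7.32% of all genes, while 1 was called higher, beside 9.14%. Of the 9 chains called with all libraries, 8 were among those 11. Col11a2 dropped out (adjusted p = 0.0507, edgeR), and Col1a1, Col5a1 and Col18a1 entered. The median log2 fold change moved from -1.002 to -0.44, with 24 chains negative and 10 positive.

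**Figure D2:**
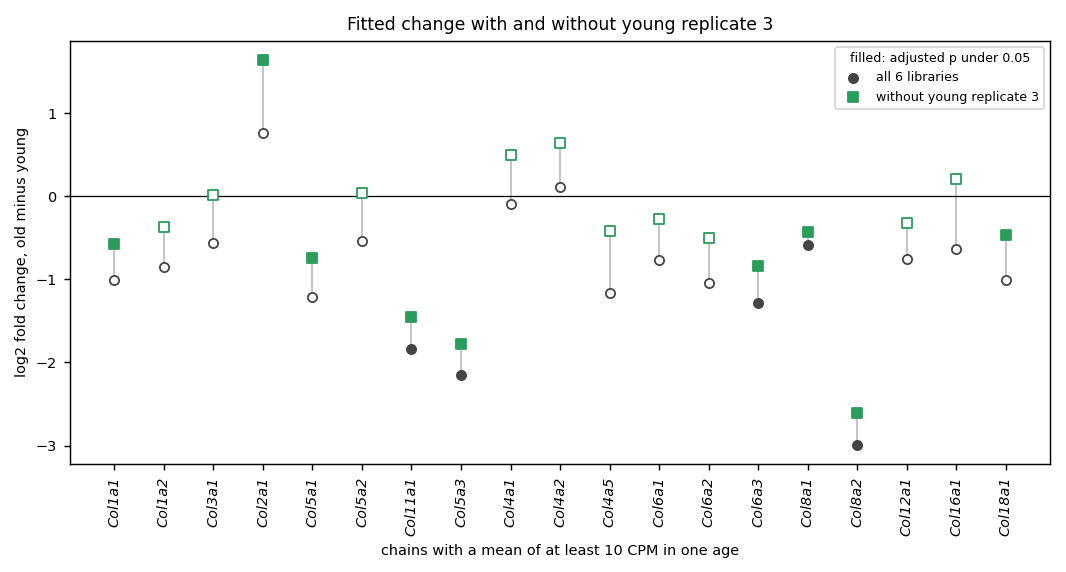
Log2 fold change, old minus young, of the 19 collagen chains whose mean reached 10 CPM in one age, with all 6 libraries (circles) and without young replicate 3 (squares), filled where the adjusted p was under 0.05. All 19 chains moved up when that library was left out, and Col2a1 became the 1 chain called higher.

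The main chains of type I collagen, the chief fibre of bone, stood far above the others. Col1a1 (ENSMUSG00000001506, chr11:94936224-94953042, mm10, protein-coding), the alpha1 chain, was read at 19085, 16937 and 36658 CPM in the young and at 10920, 11565 and 13803 CPM in the old libraries. All old libraries lay below all young ones, with the highest value in young replicate 3. The log2 fold change was -1.002 (SE 0.293, edgeR adjusted p = 0.0783), past the threshold neither with all libraries nor when scaled otherwise in edgeR. It was -0.57 (adjusted p = 0.0191) without young replicate 3, and DESeq2 gave an adjusted p of 0.0024. Col1a2 (chr6:4504814-4541544), the alpha2 chain, was read at 10356, 9104 and 21239 CPM in the young and 6888, 6888 and 8783 CPM in the old libraries. The groups did not overlap, and the log2 fold change was -0.85 (SE 0.318, edgeR adjusted p = 0.158). No edgeR fit without 1 library called Col1a2, while DESeq2 gave an adjusted p of 0.0254.

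Divided by transcript length, the young libraries had a mean level of 4085 CPM per kilobase for Col1a1 and 2537 for Col1a2, followed by 1002 for Col3a1, 362 for Col6a1, 252 for Col6a2, 203 for Col8a1, 172 for Col2a1, 150 for Col5a1 and 131 for Col5a2. In the old libraries the mean level was 2040 CPM per kilobase for Col1a1, 1406 for Col1a2 and 679 for Col3a1. Col2a1 came next there, at 293, above Col6a1 at 212, Col8a1 at 135, Col6a2 at 122, Col5a2 at 90.5 and Col5a1 at 64.6. The order of the first 3 chains was the same in both ages, whereas by these means Col2a1 came after Col8a1 in the young and after Col3a1 in the old libraries. The young mean of Col2a1 joins 459 and 501 CPM with 1676 CPM in young replicate 3, so its place by the mean need not hold in each young library. From Col6a1 down to Col5a1, the SD of each chain between the young libraries exceeded its gap to the next chain in the young order. These SDs include the shift of most chains in young replicate 3, so they do not measure how steady the order was within libraries. The ratio of Col6a1 to Col6a2 counts, for instance, was 1.503 ± 0.0373 in the young libraries (SD, n = 3).

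Col3a1 (chr1:45311538-45349706), the single chain of type III collagen of soft, extensible tissue, was not called. Its level was 3875, 3604 and 9248 CPM in the young and 3479, 3218 and 4633 CPM in the old libraries, and the groups overlapped. The log2 fold change was -0.56 (SE 0.367, edgeR adjusted p = 0.427) and 0.02 without young replicate 3. Col5a2, a chain of type V collagen that sets fibre diameter, lies 24.6 kb from Col3a1 on chromosome 1 and had a log2 fold change of -0.54. The ratio of Col3a1 to Col5a2 counts was 6.41 ± 0.0703 in the young and 6.29 ± 0.215 in the old libraries (SD, n = 3). The ranges of that ratio overlapped. Col3a1, Col5a1, Col5a2 and Col2a1 were chosen for description after their values were seen.

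The minor fibrillar chains of types V and XI, which are built into the core of larger fibres, included all 3 fibrillar chains that fell. Col5a3 (ENSMUSG00000004098, chr9:20770050-20815067), whose upstream window is printed above, was read at 87.2, 78.2 and 156 CPM in the young and at 16.4, 21.9 and 34.4 CPM in the old libraries. Every old library was lower than every young one. Its log2 fold change was -2.15 (SE 0.354, edgeR adjusted p = 0.0108), and the adjusted p was 0.0574 when old replicate 2 was left out. Col11a1 (ENSMUSG00000027966, chr3:114030540-114220718) was read at 156, 124 and 269 CPM in the young and 47.6, 42.5 and 63.9 CPM in the old libraries. The groups lay apart, with a log2 fold change of -1.84 (SE 0.301, edgeR adjusted p = 0.0106). The call was lost without old replicate 1 or old replicate 2, with an adjusted p of at most 0.0571.

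Col11a2 (chr17:34039437-34066685), a partner chain of Col11a1 in type XI collagen, was scarce. It was read at 4.34, 1.896 and 7.52 CPM in the young and 0.319, 0.857 and 0.111 CPM in the old libraries. All old values lay below all young ones, and the log2 fold change was -3.40 (SE 0.745, edgeR adjusted p = 0.0307). The call was lost without young replicate 1, young replicate 3, old replicate 1 or old replicate 3 (adjusted p of at most 0.128) and in limma-voom (0.0536). Without old replicate 2 the log2 fold change was -4.36.

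Within type V collagen the fitted log2 fold changes of the chains differed in size. The ratios that compare these chains were chosen after the values were seen, and no conclusion is drawn from them. Col5a1, the main type V chain, was read at 974, 842 and 1961 CPM in the young and 484, 513 and 633 CPM in the old libraries. The groups lay apart, and the log2 fold change of -1.21 just missed the threshold (SE 0.313, edgeR adjusted p = 0.0530). It was -0.74 with an adjusted p of 0.0120 without young replicate 3, and DESeq2 gave an adjusted p of 0.000414. Col5a2 was read at 597, 567 and 1447 CPM in the young and 541, 532 and 725 CPM in the old libraries, which overlapped. The ratio of Col5a1 to Col5a2 counts was 1.49 ± 0.138 in the young and 0.911 ± 0.0472 in the old libraries (SD, n = 3), and that of Col5a3 to Col5a2 was 0.131 ± 0.0200 and 0.0396 ± 0.00867. In both ratios all old libraries lay below all young ones, young replicate 3 included.

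Col2a1 (ENSMUSG00000022483, chr15:97975602-98004695), the chain of type II collagen and the main fibre of cartilage, was the fibrillar chain with a positive log2 fold change. It was read at 459, 501 and 1676 CPM in the young and at 1270, 1422 and 1793 CPM in the old libraries. Young replicate 3 lay inside the old range and the other young libraries below it. The log2 fold change was 0.77 (SE 0.487, edgeR adjusted p = 0.412) with all libraries and 1.64 (adjusted p = 0.00167) without young replicate 3. As a part of all collagen counts it was 1.57% ± 0.482 in the young and 5.18% ± 0.265 in the old libraries (SD, n = 3), and the ranges lay apart. Col2a1 counts per Col1a1 count were 3.85-fold higher in the old libraries.

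Chondrocyte markers were lower in sum. Of the 11 chondrocyte markers 6 were tested, 3 fell (Panx3, Sox9 and Ihh) and none rose in edgeR, DESeq2 or limma-voom. Of all tested genes, edgeR called 4.7% lower. Comp alone was positive (log2 fold change 1.17, edgeR adjusted p = 0.209) and was higher at an unadjusted p under 0.05. Its value ran from 0.82 to 1.48 when single libraries were left out. Matn3 had a log2 fold change of -0.12 (edgeR adjusted p = 0.900). The summed level of the 11 markers was 135 to 216 CPM in the young and 64.5 to 71.3 CPM in the old libraries. The cartilage proteoglycan gene Acan was read at 0.571, 0 and 2.32 CPM in the young and 0, 0 and 0.0555 CPM in the old libraries, and Snorc had no count in any library. The type IX chains, which coat type II fibres in cartilage, had at most 13 counts in any library.

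The remaining fibrillar chains were scarce. Col24a1 had a log2 fold change of -1.66 (edgeR adjusted p = 0.0854) and Col27a1 one of -1.48 (adjusted p = 0.140), both with all old libraries below all young ones and means of 1.76 and 2.36 CPM in the young libraries. DESeq2 gave an adjusted p of 0.0268 for Col24a1. Over the 11 fibrillar chains, all tested, the median log2 fold change was -1.21, 10 were negative and 1 positive, 3 fell and none rose. At an unadjusted p under 0.05, 8 were lower and 0 higher, and DESeq2 called 7 lower and 0 higher, limma-voom 2 and 0. Of all tested genes, edgeR called 4.7% lower and 5.84% higher, and at an unadjusted p under 0.05 the shares were 11.1% and 12.7%. They were 7.31% and 8.56% in DESeq2, and 4.55% and 6.06% in limma-voom.

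**Figure D3:**
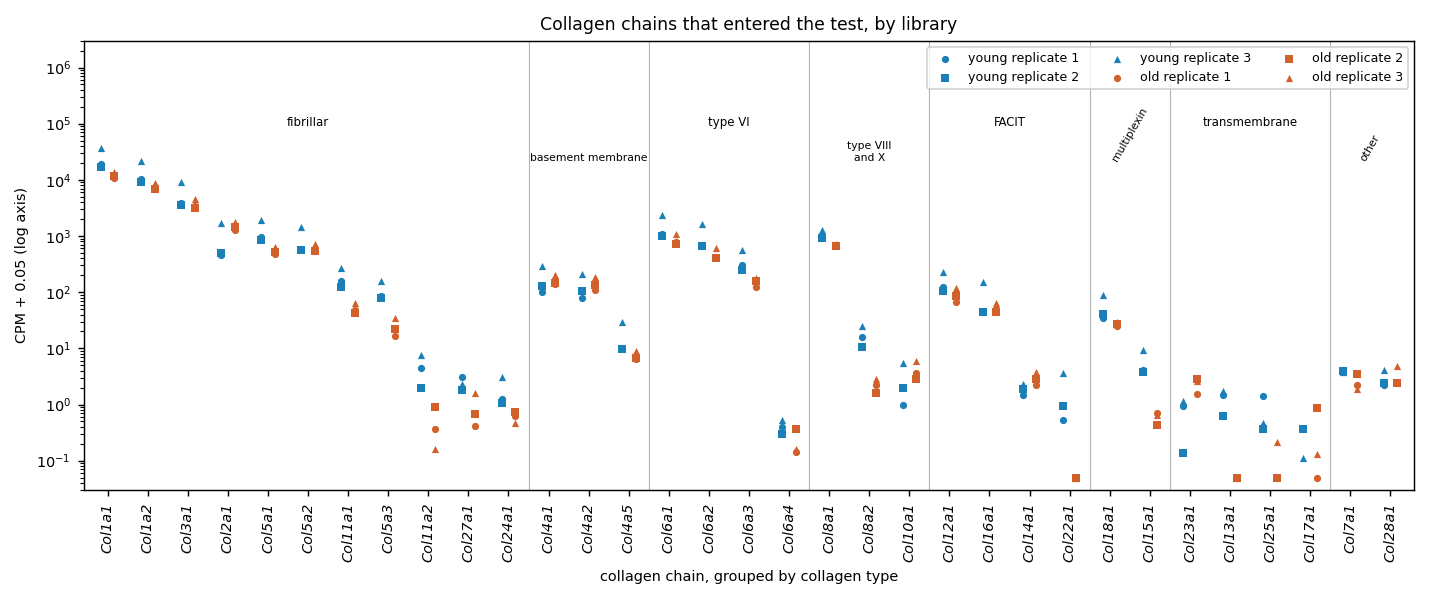
CPM plus 0.05 of the 33 tested collagen chains in each library on a logarithmic vertical axis, grouped by collagen type. Young libraries are blue and old libraries orange, each replicate has its own symbol, and the values of Col1a1, from 10920 to 36658 CPM, were the highest.

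The network-forming collagens of types VIII and X gave the chain with the smallest adjusted p. Col8a2 (ENSMUSG00000056174, chr4:126286793-126314330), known from the basement layer of the corneal endothelium and from vessel walls, was read at 15.9, 10.4 and 25.1 CPM in the young and 2.14, 1.56 and 2.75 CPM in the old libraries. The lowest young value was far above the highest old value. The log2 fold change was -2.99 (SE 0.369, edgeR adjusted p = 0.00347), and the call held in each of the 6 fits that left out 1 library. Its partner Col8a1 (chr16:57624258-57754737) was read at 917, 928 and 1259 CPM in the young and 670, 673 and 718 CPM in the old libraries. The groups lay apart and the change was smaller, with a log2 fold change of -0.59 (SE 0.134, edgeR adjusted p = 0.0348). That call was lost without young replicate 2 or any 1 of the old libraries (adjusted p of at most 0.137).

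The ratio of Col8a2 to Col8a1 counts was 0.0161 ± 0.00449 in the young and 0.00312 ± 0.000762 in the old libraries (SD, n = 3), 5.14-fold lower, with no overlap. Col10a1, the collagen of hypertrophic cartilage, had 33, 68 and 185 counts in the young and 155, 106 and 216 counts in the old libraries. These overlapped, and the log2 fold change was 0.56 (SE 0.614, edgeR adjusted p = 0.665).

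Type IV collagen, the scaffold of basement membranes, was not called. Col4a1 and Col4a2 start next to each other on chromosome 8 on opposite strands. Col4a1 was read at 99.5, 129 and 290 CPM in the young and 137, 144 and 204 CPM in the old libraries, with a log2 fold change of -0.10 (SE 0.386, edgeR adjusted p = 0.920). Col4a2 was read at 78.2, 106 and 213 CPM in the young and 109, 136 and 186 CPM in the old libraries, with a log2 fold change of 0.12 (SE 0.371, edgeR adjusted p = 0.896). In both chains the old libraries lay between young replicate 3 and young replicate 1, and the signs of these small differences turned when single libraries were left out. Col4a5 had a log2 fold change of -1.16 (edgeR adjusted p = 0.168), with all old libraries below all young ones, and DESeq2 gave an adjusted p of 0.0369. Of the chains too scarce to test, Col4a3 had 2 to 12 counts in each library, Col4a4 had 2 counts in young replicate 2 alone, and Col4a6 had 0 counts in all 6 libraries.

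None of the 3 tested type IV chains was called by edgeR or limma-voom, 1 was lower at an unadjusted p under 0.05, 0 were higher, and DESeq2 called 1 lower and 0 higher. The median log2 fold change of the 3 was -0.10. Of all tested genes, 4.7% were lower in edgeR, 4.55% in limma-voom, 7.31% in DESeq2 and 11.1% at an unadjusted p under 0.05. Endothelial markers, which belong to cells that lie on such membranes, had a summed level of 25.4 to 45.0 CPM in the young and 22.8 to 28.8 CPM in the old libraries, and none of the 8 was called in edgeR or limma-voom, 2 were lower at an unadjusted p under 0.05, and DESeq2 called 1 lower, as did edgeR without young replicate 1. Kdr was read at 11.05, 19.4 and 17.1 CPM in the young and 9.56, 9.81 and 7.19 CPM in the old libraries, with an adjusted p of 0.0679 in edgeR, and Egfl7 had one of 0.749.

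Type VI collagen forms beaded filaments close to the cell surface from 3 different chains. Col6a1 (chr10:76708792-76726168) was read at 1078, 1018 and 2354 CPM in the young and 788, 720 and 1098 CPM in the old libraries, and Col6a2 (chr10:76595762-76623630) at 705, 669 and 1612 CPM and at 429, 403 and 619 CPM. Old replicate 3 overlapped the young range of Col6a1 and lay below that of Col6a2. The log2 fold changes were -0.77 (SE 0.340, edgeR adjusted p = 0.226) and -1.04 (SE 0.358, adjusted p = 0.127), and neither was called.

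Col6a3 (ENSMUSG00000048126, chr1:90765923-90843971), the longest of the 3 chains, fell. It was read at 301, 244 and 571 CPM in the young and 124, 156 and 178 CPM in the old libraries, all old values below all young ones. The log2 fold change was -1.28 (SE 0.314, edgeR adjusted p = 0.0445), and the call was lost without young replicate 1 or any 1 of the old libraries (adjusted p of at most 0.165) and without the filter on low counts (0.0734). The ratio of Col6a3 to Col6a1 counts was 0.254 ± 0.0220 in the young and 0.179 ± 0.0334 in the old libraries (SD, n = 3), and the ranges lay apart. Col6a4 was tested and not called (log2 fold change -1.05), Col6a5 had at most 12 counts in any library, and Col6a6 had 24, 5 and 55 counts in the young and 2, 0 and 4 in the old libraries. Col6a6 failed the filter on low counts with all 6 libraries and was not tested there. Without the filter its edgeR adjusted p was 0.0948, and without young replicate 2, where it passed the filter, its log2 fold change was -4.42 (adjusted p = 0.0448). The 4 tested type VI chains were all negative, and their median log2 fold change was -1.05. Of these, 1 was called lower, beside 4.7% of all tested genes.

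Among the FACIT collagens, the abundant chains were not called. Col12a1, of tendon and fibre-rich tissue, was read at 122, 105 and 232 CPM in the young and 68.1, 84.2 and 121 CPM in the old libraries (log2 fold change -0.75, SE 0.331, edgeR adjusted p = 0.226). Col16a1 was read at 47.0, 44.7 and 155 CPM in the young and 50.9, 44.5 and 63.9 CPM in the old libraries (log2 fold change -0.63, SE 0.475, adjusted p = 0.499), and the value was 0.21 without young replicate 3. The groups overlapped for both chains, and old replicate 3 was the highest old library. Col14a1 had a positive log2 fold change of 0.67 (adjusted p = 0.220).

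Col22a1 (ENSMUSG00000079022, chr15:71795795-72034227), a FACIT chain known from the junction of muscle and tendon, had 17, 31 and 119 counts in the young and 0 in each old library. Set against a floor of 3 counts over the old libraries together, it was at least 63.3-fold lower, or at least 26.9-fold without young replicate 3, which held most of the young counts. These bounds cover counting error only. The edgeR adjusted p was 0.0315, and it rose to as much as 0.0829 when single libraries were left out, so that the call held without young replicate 1 or young replicate 3 and was lost in the other 4 fits. The other FACIT chains, Col9a1, Col9a2, Col9a3, Col19a1 and Col20a1, had 0 to 13 counts per library and were not tested. Of the 4 tested chains 1 was called lower, beside 4.7% of all tested genes, and their median log2 fold change was -0.69.

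Both multiplexins, collagens with long non-helical ends found near basement membranes, were lower in every old library. Col15a1 (ENSMUSG00000028339, chr4:47208161-47313167) was read at 4.05, 3.71 and 9.36 CPM in the young and 0.662, 0.389 and 0.611 CPM in the old libraries. The lowest young value was well above the highest old value, the log2 fold change was -3.35 (SE 0.451, edgeR adjusted p = 0.00499), and the call held in all 6 fits without 1 library. Col18a1 (chr10:77052178-77166548), the source of the fragment endostatin, was read at 34.1, 40.4 and 88.6 CPM in the young and 24.7, 26.7 and 29.6 CPM in the old libraries. It was not called with all libraries (log2 fold change -1.01, SE 0.343, edgeR adjusted p = 0.122), while the value without young replicate 3 was -0.46 (adjusted p = 0.0423) and DESeq2 gave an adjusted p of 0.0148.

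The transmembrane collagens were scarce and differed in direction. Col13a1 (ENSMUSG00000058806, chr10:61838236-61979108), a surface protein of many adherent cells and of the muscle end plate, had 49, 20 and 56 counts in the young and 0 in each old library. It was at least 47.4-fold lower against a floor of 3 counts over the old libraries, or at least 38.7-fold without young replicate 3. Its edgeR adjusted p was 0.0104, and the call held in all 6 fits without 1 library. Col23a1 was read at 0.885, 0.0849 and 1.13 CPM in the young and 1.48, 2.83 and 2.55 CPM in the old libraries. Every old library lay above every young one, and the log2 fold change was 1.71 (SE 0.709, edgeR adjusted p = 0.199). Col25a1 had 73 young and 6 old counts in all (log2 fold change -3.66, edgeR adjusted p = 0.107, DESeq2 adjusted p = 0.0425), and Col17a1 had 24 and 34.

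Among the other chains, Col7a1, the anchoring fibril of skin, was read at 4.08, 3.90 and 3.74 CPM in the young and 2.21, 3.48 and 1.83 CPM in the old libraries. The groups lay apart by a small margin, and it was not called (log2 fold change -0.64, SE 0.266, edgeR adjusted p = 0.199). Col7a1 is 1 of the tested chains in which young replicate 3 was not high. Col28a1 was read at 2.17, 2.38 and 4.04 CPM in the young and 2.35, 2.34 and 4.86 CPM in the old libraries and overlapped (log2 fold change 0.15, adjusted p = 0.870). Col26a1 had 0 counts in all libraries.

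The balance between chains that share a molecule or a fibre was also followed as ratios of counts within each library. The ratios moved in young replicate 3 too, where Col2a1 to Col1a1 was 0.0457 against 0.0240 and 0.0296 in the other young libraries. For 13 ratios, chosen after the values were seen, the old and young ranges lay apart in 9. The exact two-sided permutation p of each of the 9 was 0.1, the smallest that 3 against 3 allows, and 0.144 after Benjamini-Hochberg adjustment over the 13. Neither value could fall under 0.05, and the adjustment does not correct for the choice of ratios, so no conclusion is drawn from them. Col1a1 to Col1a2 was 1.81 ± 0.0731 in the young and 1.61 ± 0.0584 in the old libraries, and Col3a1 to Col1a1 was 0.223 ± 0.0261 and 0.311 ± 0.0295 (SD, n = 3). Col6a1 to Col6a2 was 1.503 ± 0.0373 and 1.80 ± 0.0314, and Col11a1 to Col5a1 was 0.148 ± 0.0115 and 0.0940 ± 0.00974 (SD, n = 3). In each of these ratios young replicate 3 lay outside the old range. The ranges overlapped for Col11a2 to Col11a1, Col4a1 to Col4a2, Col12a1 to Col1a1 and Col3a1 to Col5a2. The ratios are of counts and not per length, so only their difference between ages can be read.

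**Figure D4:**
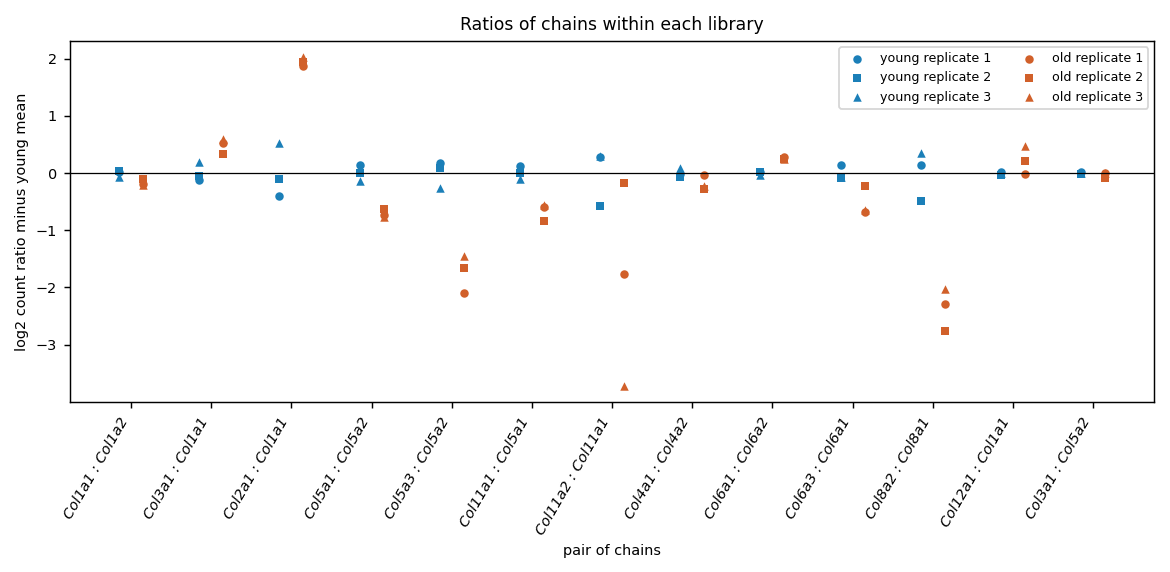
Log2 ratio of the counts of 13 pairs of collagen chains in each library, minus the mean of the young libraries, with young and old libraries shown separately. The ratio of Col8a2 to Col8a1 was 5.14-fold lower and that of Col2a1 to Col1a1 3.85-fold higher in the old libraries, with no overlap between ages.

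Genes that make, fold, cut, crosslink and bind collagen are given list by list. Beside their counts stand the shares of all tested genes. In edgeR these were 4.7% lower and 5.84% higher with all 6 libraries, and 7.32% and 9.14% without young replicate 3. At an unadjusted p under 0.05 with all 6 libraries they were 11.1% lower and 12.7% higher. They were 7.31% and 8.56% in DESeq2, and 4.55% and 6.06% in limma-voom. Of 15 genes for hydroxylation and glycosylation, 14 were tested and 1 fell, P4ha1, a catalytic subunit of prolyl 4-hydroxylase, from 244, 186 and 211 CPM to 118, 122 and 131 CPM (log2 fold change -0.79, SE 0.111, edgeR adjusted p = 0.00596). With all 6 libraries no gene of this list rose in edgeR, DESeq2 or limma-voom, or at an unadjusted p under 0.05, and its median log2 fold change was -0.23. Without young replicate 3, edgeR called 2 lower, P4ha1 and Plod1, and 1 higher, P3h3, at a log2 fold change of 0.45 (adjusted p = 0.0307) against -0.37 with all libraries. None of the 9 folding and export genes was called in edgeR or limma-voom, 3 were lower and 1 higher at an unadjusted p under 0.05, DESeq2 called 1 lower, and the median was -0.23. The collagen chaperone Serpinh1 was read at 1782, 1523 and 2195 CPM in the young and 1399, 1496 and 1488 CPM in the old libraries (adjusted p = 0.200), and the collagen-binding Sparc had an adjusted p of 0.893.

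Of 8 propeptide removal genes, 7 were tested and 1 fell, Pcolce2, an enhancer of procollagen C-proteinase (log2 fold change -1.78, SE 0.173, edgeR adjusted p = 0.00149). With all 6 libraries none of them rose in edgeR, DESeq2 or limma-voom or at an unadjusted p under 0.05, and the median was -0.44. Without young replicate 3, edgeR called 2 lower, Pcolce2 and Bmp1, and 1 higher, Adamts2, at 0.47 (adjusted p = 0.0284) against -0.17 with all libraries, and without old replicate 3 it called 2 lower. None of the 5 crosslinking genes was called in edgeR or limma-voom with all 6 libraries, while edgeR called 3 higher without young replicate 3 (Loxl1, Loxl3 and Loxl4). At an unadjusted p under 0.05, 2 were higher and 0 lower, and DESeq2 called 1 higher. Lox, the main lysyl oxidase, had a log2 fold change of 0.05 (adjusted p = 0.830), and Loxl3 one of 0.52 (adjusted p = 0.0635).

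Of the 11 collagen receptors, 2 fell and 1 rose with all 6 libraries, beside 4.7% and 5.84% of all tested genes. Without young replicate 3, edgeR called 3 lower (Itga10, Itga11 and Lair1) and 5 higher (Adgrg1, Ddr1, Ddr2, Itga1 and Mrc2), beside 7.32% and 9.14%. Without old replicate 1 it called 1 lower and 0 higher. The inhibitory leukocyte receptor Lair1 fell from 45.8, 42.9 and 40.8 CPM to 23.0, 17.1 and 20.3 CPM (log2 fold change -1.10, SE 0.128, edgeR adjusted p = 0.00283). The integrin chain Itga10 fell by 4.18 on the log2 scale (adjusted p = 0.0105, lost without old replicate 1 at 0.0574), and 33.5% of its exon length overlaps another gene. Adgrg1, an adhesion receptor for type III collagen, rose by 1.79 on the log2 scale (adjusted p = 0.0177), a call lost without old replicate 1 or old replicate 2. The median of the 11 was 0.29.

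With all 6 libraries, 2 of the 7 collagen-degrading genes rose and none fell in edgeR or limma-voom, with 1 lower in DESeq2 and 1 at an unadjusted p under 0.05. Of all tested genes, edgeR called 5.84% higher and 4.7% lower. The neutrophil collagenase Mmp8 rose from 15.9, 20.3 and 14.4 CPM to 43.9, 40.3 and 50.4 CPM (log2 fold change 1.41, SE 0.157, edgeR adjusted p = 0.00251). The collagenase Mmp13 was read at 531, 642 and 553 CPM in the young and 828, 752 and 1122 CPM in the old libraries (log2 fold change 0.65, SE 0.160, adjusted p = 0.0464), and its call was lost in each of the 6 fits without 1 library. Without young replicate 3 the genes called higher were Mmp8 and Ctsk, and each of the other 5 fits called 1 higher. The median of the list was 0.05.

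Of 10 transcription factors known to act on collagen genes, 6 fell and 1 rose, beside 4.7% and 5.84% of all tested genes. Among those that fell, Runx2 and Sp7 are also counted as osteoblast markers, Sox9 as a chondrocyte marker and Scx as a tendon marker. These lists are therefore not independent. The median log2 fold change was -0.81. The factor that rose was Sox5, at a log2 fold change of 1.81 (edgeR adjusted p = 0.0136). That call was lost without young replicate 1 or old replicate 1. Without old replicate 1, 2 fell and 0 rose, and in the other fits without 1 library 5 or 6 fell. Creb3l1, a membrane-bound activator of type I collagen in osteoblasts, fell from 333, 254 and 345 CPM to 148, 156 and 150 CPM (log2 fold change -1.04, SE 0.123, edgeR adjusted p = 0.00304). Mef2c, a regulator of chondrocyte and osteocyte genes, fell by 1.26 on the log2 scale (adjusted p = 0.00251). The calls of both held in all 6 fits without 1 library. The cartilage regulator Sox9 fell by 0.58 (adjusted p = 0.0103) and the tendon regulator Scx fell by 1.75 (adjusted p = 0.0124), each lost without old replicate 1. Young replicate 3 lay within the range of the other young libraries for Sox9 and Scx, below it for Mef2c and slightly above it for Creb3l1.

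Markers of the cells that make collagen moved with age in both directions. The marker counts here and below stand beside 4.7% of all tested genes called lower and 5.84% called higher. Summed osteoblast markers were 1641 to 3458 CPM in the young and 756 to 993 CPM in the old libraries, and 5 of 10 fell, among them the mineralised matrix genes Dmp1 and Ibsp (log2 fold changes -6.74 and -4.46), Ifitm5, of which 29.7% of the exon length overlaps another gene, and the regulator Sp7. Tendon markers summed to 460 to 1303 CPM and 206 to 293 CPM, with 3 of 5 tested genes lower (Tnmd, Scx and Fmod) and 1 higher (Thbs4). Stromal and fibroblast markers went the other way in sum, from 1383 to 2020 CPM in the young to 2585 to 2936 CPM in the old libraries, with 2 of 11 higher (Pdgfra and Cxcl12) and 2 lower (Lum and Lepr). The list as a whole did not rise, with a median log2 fold change of -0.14, 6 genes negative and 5 positive.

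Smooth muscle and pericyte markers summed to 2276 to 2983 CPM in the young and 3966 to 4486 CPM in the old libraries, with 3 of 8 higher (Acta2, Tagln and Cnn1) and 1 lower (Notch3), and 67.9% of the Tagln exon length overlaps another gene. Adipocyte markers summed to 320 to 587 CPM and 810 to 1006 CPM, with 3 of 5 tested genes higher (Fabp4, Pparg and Lpl) and none lower by any of the 3 tools or at an unadjusted p under 0.05. General leukocyte markers summed to 1438 to 1626 CPM and 1064 to 1128 CPM, with 4 of 6 lower (Fcer1g, Laptm5, Tyrobp and Spi1). B cell markers summed to 3.09 to 4.77 CPM and 15.6 to 27.6 CPM, with 3 of 4 tested genes higher (Ms4a1, Cd79a and Cd79b). Schwann cell markers summed to 13.2 to 16.4 CPM and 14.9 to 17.5 CPM, and the 1 tested gene, Mbp, was not called by any tool. The part of these cell types in the collagen differences was not tested. Among the markers named here beside Sox9 and Scx, the calls of Cd79b, Cnn1, Fmod, Ifitm5, Ihh, Laptm5, Lepr, Lpl, Lum, Notch3, Acta2, Sp7, Spi1, Tagln, Thbs4 and Tyrobp were lost in 1 or more of the fits without 1 library. Those fits called 294 to 1168 of all genes lower and 418 to 1459 higher, so the marker counts moved along with the counts over all genes. Over those fits, edgeR called 3 to 7 osteoblast markers lower, 1 to 3 tendon markers lower, 1 to 4 chondrocyte markers lower and 1 to 6 leukocyte markers lower. It called 2 to 4 stromal markers higher and 0 to 1 lower, and 0 to 3 smooth muscle markers higher. Without young replicate 3, the stromal markers called were Pdgfra, Cxcl12, Fbln1 and Pdgfrb, all higher.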

How the data were processed

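RNA of 10000 cells per library was amplified with a low-input kit, without strand marking, and sequenced in pairs, per the labels' protocols. The authors deposited whole-number counts of reads per gene for all 6 libraries. Per the submitters' processing notes, the build was mm10 and the tools were STAR 2.6.1a and HISAT2 2.1.0, StringTie 1.3.4d, SAMtools 1.9 and Picard 2.18.15, with cutadapt 1.18 and Trim Galore 0.50. Not given in the sources used here are the counter, the annotation, the strand setting and the treatment of multiply mapped reads, and overlapping or similar genes may share reads. At most 6.1% of the exon length of any collagen chain overlapped another gene.

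Symbols were matched to 37607 of 39017 identifiers. Counts were tested in R 4.3.3 with edgeR 4.0.16 (filterByExpr, TMM, robust quasi-likelihood test, age as the only term, Benjamini-Hochberg adjustment over 15567 genes). The SE was taken from the log2 fold change and the F statistic. CPM uses TMM-scaled library sizes. Alternatives used DESeq2 1.42.0, limma 3.58.1, other scalings and filters, a block on replicate number and each library left out. The same fit on simulated counts for 15343 genes recovered 9.38% of genes changed 1.5-fold, 64.2% changed 2-fold and 88.7% changed 4-fold, and 7.14% of its calls were false. Genes were drawn independently there, without a shift shared by many genes of 1 library, as seen for the chains in young replicate 3. These rates may therefore not hold for the chains. Exact permutation tests used scipy 1.17.1. Reads carry no molecular identifiers, so bounds on counts cover counting error only.

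Positions and transcript lengths came from GENCODE M21 and upstream sequences from RefSeq on GRCm38.p6. The members, the 18 lists and their tests were chosen with earlier results of these data known. Values per library were given for called chains with at least 1 CPM in the higher age and for the 2 most abundant chains of each type. From each list, up to 4 called genes of smallest p were named, or the 2 most abundant where none was called. Chains and genes named outside these rules were chosen after their values were seen. All 6 pairs of libraries within an age differed beyond sampling noise.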

Additional observations from a re-analysis of the deposited data

How the results depend on the processing

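3 libraries per age limit every result, and scarce chains rest on few counts. For all genes the counts higher and lower in old libraries were 909 and 731, and leaving out each library gave 418 to 1459 and 294 to 1168, with most calls without young replicate 3. DESeq2 called 1331 genes higher and 1137 lower. The number of collagen chains lower was 9 and ran from 4, without old replicate 1 or old replicate 2, to 11 without young replicate 3, with 0 to 1 higher. DESeq2 called 16 lower, and the other scalings, filters and limma-voom gave 8 to 10. The difference in collagen share, old minus young, ran from -2.83 to -0.883 percentage points when single libraries were left out.

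Same-numbered libraries deviated together with correlations of 0.129, 0.034 and 0.158, so the numbers were not taken as pairs. A block on replicate number gave 711 genes higher, 575 lower and 11 collagen chains lower. It added Col5a1 (adjusted p = 0.0257), Col6a2 (0.0254) and Col12a1 (0.0410) and dropped Col11a2 (0.10), and not every library correlated best with its own number.

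Among chains and named genes, signs turned only for those not called with all 6 libraries. P3h3 and Adamts2 also turned without young replicate 3, to 0.45 and 0.47, and were called there. When single libraries were left out, the log2 fold change ran from -0.93 to 0.21 for Col16a1, from -0.37 to 0.50 for Col4a1, from -0.15 to 0.64 for Col4a2, from -0.80 to 0.015 for Col3a1 and from -0.77 to 0.043 for Col5a2. It ran from -0.29 to 0.48 for Col28a1, from -2.46 to 0.95 for Col17a1, from -0.024 to 0.11 for Lox, from -0.027 to 0.14 for Mbp and from -0.27 to 0.33 for Sparc. For Col16a1, Col3a1, Col5a2 and Sparc the sign turned only without young replicate 3. limma-voom gave 0.038 for Col4a1 and -1.13 for Col17a1, and the replicate block gave 0.038 and -0.33. The cause was not tested.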
